A study of Mus musculus with 4 samples.

Results

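The Toll-like receptor genes of a mouse macrophage line were measured after treatment with proteasome inhibitors. The set held 10 genes chosen by name, which were 8 receptors (*Tlr1*, *Tlr2*, *Tlr3*, *Tlr4*, *Tlr6*, *Tlr7*, *Tlr8* and *Tlr9*), the co-receptor *Cd14* and the adaptor *Myd88*, out of 20140 genes that could be named on the arrays. All 10 had a probe, and they were measured by 11 probes, 1 for each gene and 2 for *Tlr7*. J774.1 cells, labelled as a monocyte-macrophage cell line, were kept for 4 hours with MG132, epoxomicin or an ONX compound at 1 μM, or with the solvent DMSO as the control. Total RNA of each culture was hybridized to 1 single-color (Cy3) array, which gave 4 arrays with 1 array per condition. MG132 is described as a proteasome inhibitor, epoxomicin as an inhibitor of the 20S proteasome, and the ONX compound as one that acts on β5 and β5i, the catalytic subunit of the constitutive proteasome and its counterpart in the immunoproteasome. The treatment label of the ONX array reads ONX-0912, whereas ONX0914 is the compound named in the paper and, with a space, in the protocol, so the array is called ONX here. The question put to these arrays was which genes differ in expression when proteasomes are inhibited.

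Toll-like receptors detect microbial molecules. TLR1, TLR2, TLR4 and TLR6 act at the cell surface, where TLR2 pairs with TLR1 or TLR6 to detect bacterial lipopeptides, and TLR4 detects lipopolysaccharide with the help of CD14. TLR3, TLR7, TLR8 and TLR9 detect nucleic acids in endosomes. All of them except TLR3 signal through the adaptor MYD88, which recruits IRAK kinases and TRAF6 and leads to activation of NF-κB, a pathway that itself uses the proteasome to degrade its inhibitor. Macrophages express many of these receptors.

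Signals are given as the processed fluorescence of a probe after background subtraction. For comparison between arrays, the log2 signal was set against the 75th percentile of its array, and a gene was called higher or lower at a 2-fold difference, which is 1 on the log2 scale. With 1 array per condition no test was possible, and the spread between cultures is unknown. Error is therefore given in 2 forms that cover the array only. The scanning software attached an error to each spot, which came to 0.204 to 0.209 on the log2 scale for a difference between 2 arrays, and 2 of the genes, *Tlr2* and *Myd88*, were printed as 10 spots per array. The software error was a nearly constant fraction of the signal. It therefore serves as almost the same cutoff for every gene compared, and is not a spread measured gene by gene. Signals are not compared between genes, because each probe binds with its own efficiency. The 3 inhibitor arrays were all set against the same DMSO array, so that an error of the DMSO array enters all 3 comparisons.

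The arrays were alike in quality, with 60.3% to 63.1% of 43020 spots well above background and no saturated spot. Of 8 macrophage markers, 7 had a probe, and all 7 cleared background on each of the arrays. Their signals added up to between 199123 and 245169, but *Csf1r* alone gave 165950 to 210824, so the sum mostly follows that gene. Among these markers *Lyz2* was 2.06-fold and *Spi1* 2.01-fold lower with epoxomicin, and *Mertk* was 2.01-fold higher with MG132. These log2 values of -1.04, -1.01 and 1.00 lay at or near the 2-fold limit. Markers were not examined under other ways of processing, and the signals of *Mertk* were only 50.9 to 91.8. None of 3 B cell markers was well above background. Of the T cell, neutrophil, epithelial and fibroblast markers, *Cd3d*, *S100a9*, *Epcam*, *Cdh1* and *Col1a1* were not well above background on any array. The T cell markers *Cd3e* and *Cd4* and the neutrophil marker *S100a8* were well above it on all 4. Of the fibroblast markers, *Col1a2* was well above background on all 4 arrays, at signals of 61.2 to 85.6, and *Pdgfra* on the DMSO array (38.6) and the epoxomicin array (24.1). The neutrophil marker *S100a8* was lower with MG132 (2.06-fold) and epoxomicin (2.17-fold), and the epithelial keratin *Krt8* was well above background on those 2 arrays alone, at signals of 37.8 and 121. The part of these markers in the results was not tested. In bulk RNA, fewer cells that express a gene and less RNA per cell cannot be told apart.

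*Tlr1* and *Tlr6*, the genes for the partners of TLR2, gave lower signals on all 3 inhibitor arrays than on the DMSO array, and they were the only genes of the set past 2-fold with every inhibitor, narrowly so for *Tlr1* with ONX. *Tlr3*, a receptor for double-stranded RNA, was higher on the inhibitor arrays and passed 2-fold with epoxomicin, but this depended on the background correction. *Tlr4* was 1.42-fold higher with MG132 and 1.66-fold higher with epoxomicin, both short of 2-fold, and level with ONX. *Tlr2*, *Tlr7*, *Tlr9*, *Cd14* and *Myd88* differed by less than 1.5-fold, and *Tlr8* was not well above background on any array.

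**Figure D1:**
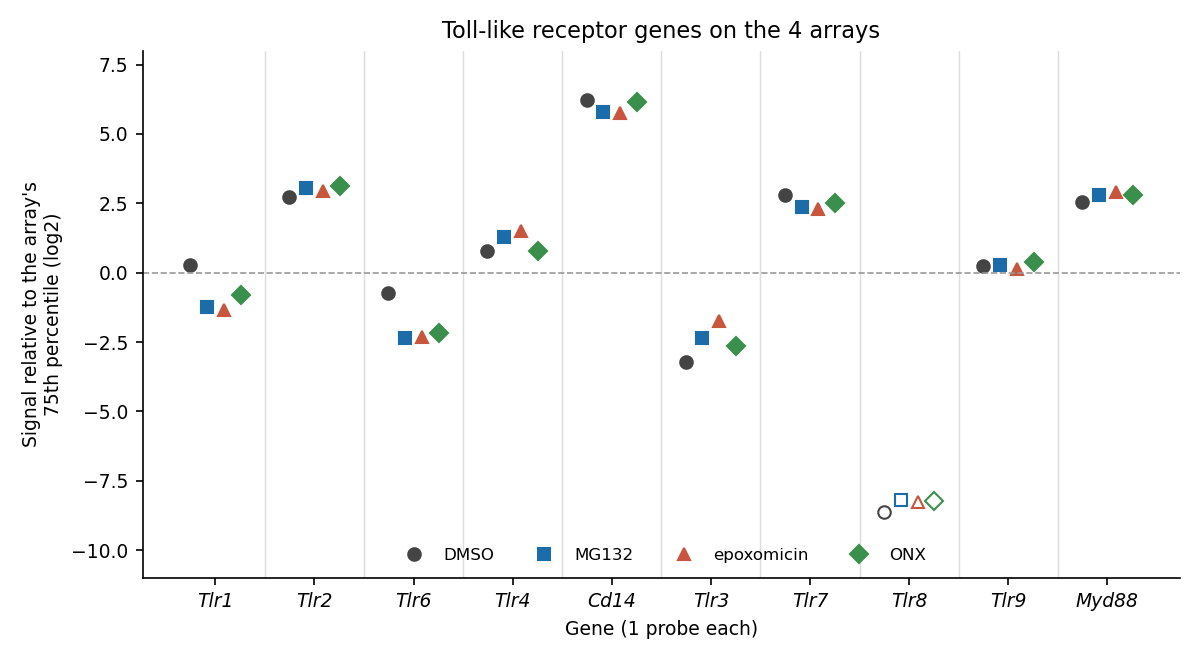
Signal of each of the 10 genes on the 4 arrays, as log2 relative to the array's 75th percentile (dashed line), with 1 point per array and open points for signals not well above background. The DMSO point of *Tlr1* and *Tlr6* sits above the 3 inhibitor points, that of *Tlr3* sits below them, and all points of *Tlr8* are open.

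Of the surface receptors, *Tlr1* gave 1770 as its signal on the DMSO array, 562 with MG132, 605 with epoxomicin and 822 with ONX. The 3 inhibitor arrays lay well below the DMSO array, and the ONX array lay nearest to it. Relative to DMSO, *Tlr1* was 2.83-fold lower with MG132 (log2 difference -1.50), 3.04-fold lower with epoxomicin (-1.60) and 2.13-fold lower with ONX (-1.09), each with a software error of 0.20. The value with ONX exceeded that with MG132 by 0.41 and that with epoxomicin by 0.51, both more than the software error, whereas MG132 and epoxomicin differed by 0.10, which was less. With another background correction (normexp), the difference with ONX was -0.99, just short of 2-fold.

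*Tlr6* gave 884 as its signal under DMSO, 256 with MG132, 304 with epoxomicin and 323 with ONX. It was 3.10-fold, 3.02-fold and 2.70-fold lower, which corresponds to log2 differences of -1.63, -1.60 and -1.43 with a software error of 0.20 to 0.21. Unlike those of *Tlr1*, the 3 inhibitor values of *Tlr6* lay within the software error of each other, the widest gap being 0.20 between ONX and MG132. Of all genes compared with DMSO, *Tlr6* was the 109th lowest of 13794 with MG132, the 140th lowest of 13893 with epoxomicin and the 75th lowest of 13802 with ONX. *Tlr1* ranked 151st, 139th and 164th from the lowest in the same comparisons.

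The count of genes past 2-fold has to be read against the share of all genes that did the same. *Tlr1* and *Tlr6* made 2 of the 9 genes of the set that could be compared (22.2%) with each inhibitor. The share of all genes lower by this measure was 4.11% for MG132, 4.85% for epoxomicin and 1.45% for ONX, and 1.05% of 13483 genes were lower with all 3. In the other direction, no gene of the set was at least 2-fold higher with MG132 (6.87% of all genes) or ONX (3.17%), and 1 was with epoxomicin (8.05%). None was higher with all 3, beside 1.97% of all genes. These shares depended on the background correction. Under normexp, 18.3%, 22.0% and 19.4% of all genes were at least 2-fold lower with MG132, epoxomicin and ONX, beside 2, 2 and 1 of the 9 genes of the set, so that the share in the set was close to that of all genes with MG132 and epoxomicin and below it with ONX. With outlier spots left out before normexp, the shares were 2.19%, 2.87% and 0.546% of all genes, beside 2 of the 9 genes with each inhibitor. With 9 genes, a single gene is 11.1% of the set, so these shares are coarse.

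**Figure D2:**
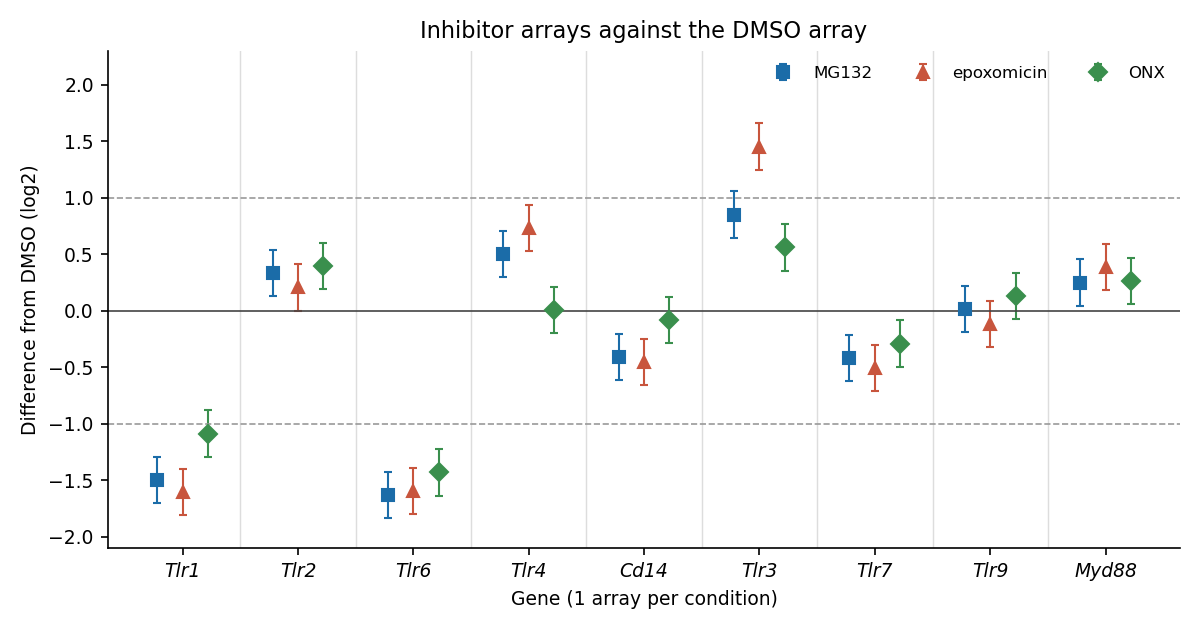
Log2 difference of each gene between an inhibitor array and the DMSO array, with 1 array per condition, bars for the software error and dashed lines at 2-fold. All 3 points of *Tlr1* and *Tlr6* lie below -1, and the epoxomicin point of *Tlr3* is the only one above 1.

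*Tlr1* and *Tlr6* are neighbors, with 0 genes between them in the RefSeq annotation of the mouse genome (GRCm38.p6). The promoter windows of both, and that of *Tlr3*, are shown because these genes were the ones past 2-fold, and they were therefore chosen after their values were known. Each window holds the 250 bases before an annotated start, 5′ to 3′ on the gene's own strand, from the minus strand of chr5:64932700-64932949 for *Tlr1*, chr5:64959167-64959416 for *Tlr6* and chr8:45410381-45410630 for *Tlr3*. Capitals mark a match to the interferon-stimulated response element (ISRE, searched as GAAA, any 2 bases and GAAA again), the gamma-activated site (GAS, searched as TTCNNNGAA) or the κB consensus.

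Tlr1: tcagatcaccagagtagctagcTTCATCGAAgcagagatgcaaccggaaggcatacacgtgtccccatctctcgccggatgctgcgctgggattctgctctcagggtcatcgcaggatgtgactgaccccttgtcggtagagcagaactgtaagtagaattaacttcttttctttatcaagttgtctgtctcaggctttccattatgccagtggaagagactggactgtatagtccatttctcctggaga

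Tlr6: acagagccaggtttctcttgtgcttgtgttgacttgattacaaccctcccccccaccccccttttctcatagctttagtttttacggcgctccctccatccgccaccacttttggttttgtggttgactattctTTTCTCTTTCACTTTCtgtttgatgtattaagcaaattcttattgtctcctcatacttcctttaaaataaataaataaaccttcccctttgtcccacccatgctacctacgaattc

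Tlr3: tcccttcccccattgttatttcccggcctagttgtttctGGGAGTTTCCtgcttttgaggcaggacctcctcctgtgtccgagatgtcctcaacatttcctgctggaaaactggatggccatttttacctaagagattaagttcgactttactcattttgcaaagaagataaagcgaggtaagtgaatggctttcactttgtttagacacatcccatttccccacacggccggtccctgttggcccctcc

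In the *Tlr1* window the capitals are a GAS match that begins 228 bases before the start. In the *Tlr6* window they are 2 overlapping ISRE matches on the opposite strand, which begin 116 and 110 bases before it. In the *Tlr3* window they are a κB match that begins 211 bases before it. A second window of *Tlr1* and a second window of *Tlr6*, at other annotated starts, held none of the 3 motifs.

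Windows were at hand for 7 of the 10 genes, 9 windows in all. Matches to ISRE were found for 2 of these genes (*Tlr6* and *Myd88*), to GAS for 3 (*Tlr1*, *Tlr8* and *Myd88*) and to κB for 2 (*Tlr2* and *Tlr3*), and the window of *Tlr9* held none. The GAS and ISRE matches of *Myd88* overlap, at 46 and 40 bases before the start, as do 2 κB matches of *Tlr2*, at 173 and 172. Of all 32851 mouse windows of this length, 2.98% held an ISRE match, 7.02% a GAS match and 7.25% a κB match. These shares are per window, and by window the matches of the set are 2, 3 and 2 of 9. None of these 3 motifs was found for both *Tlr1* and *Tlr6*. A link between motifs and signals was not tested.

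*Tlr2*, the partner of TLR1 and TLR6, had a mean signal over 10 spots of 9770 ± 393 (SD) on the DMSO array, 11035 ± 311 with MG132, 11688 ± 358 with epoxomicin and 12687 ± 336 with ONX. On the scaled log2 values, the spots of the DMSO array (2.61 to 2.83) lay below all spots of the MG132 array (2.99 to 3.13), the epoxomicin array (2.90 to 3.04) and the ONX array (3.08 to 3.20). The differences from DMSO were 0.33, 0.20 and 0.40, each with an SE over spots of 0.02. Spots of one array share its culture and hybridization, so this shows that the arrays differed, not that the conditions did. How many other probes printed as 10 spots lay apart in the same way was not counted, here and for *Myd88*. By the software error of 0.20, the value with epoxomicin was at the limit. Without scaling, the value with MG132 was 0.18, below that error. The spots of MG132 overlapped with those of epoxomicin and of ONX, whereas those of ONX and epoxomicin were apart.

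*Tlr4*, the receptor gene for lipopolysaccharide, gave 2503 as its signal under DMSO, 3183 with MG132, 4320 with epoxomicin and 2474 with ONX. The MG132 and epoxomicin arrays were high and the DMSO and ONX arrays were level. The differences from DMSO were 0.50 with MG132, 0.73 with epoxomicin and 0.00 with ONX, and the value with ONX lay 0.50 below that with MG132 and 0.73 below that with epoxomicin, both more than the software error of 0.20. The sign of the ONX value turned under 4 of 10 alternative settings, within -0.03 to 0.08.

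*Cd14*, whose product hands lipopolysaccharide to TLR4, gave 109365 as its signal under DMSO, 73733 with MG132, 82708 with epoxomicin and 102026 with ONX. Here too the DMSO and ONX arrays were close, but the MG132 and epoxomicin arrays were the low ones. The differences were -0.41 with MG132 and -0.46 with epoxomicin, both more than the software error, and -0.08 with ONX, which was less and became 0.12 under normexp. *Ly96*, which encodes the MD-2 protein that binds lipopolysaccharide together with TLR4, gave differences of -0.83, -0.41 and -0.52.

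**Figure D3:**
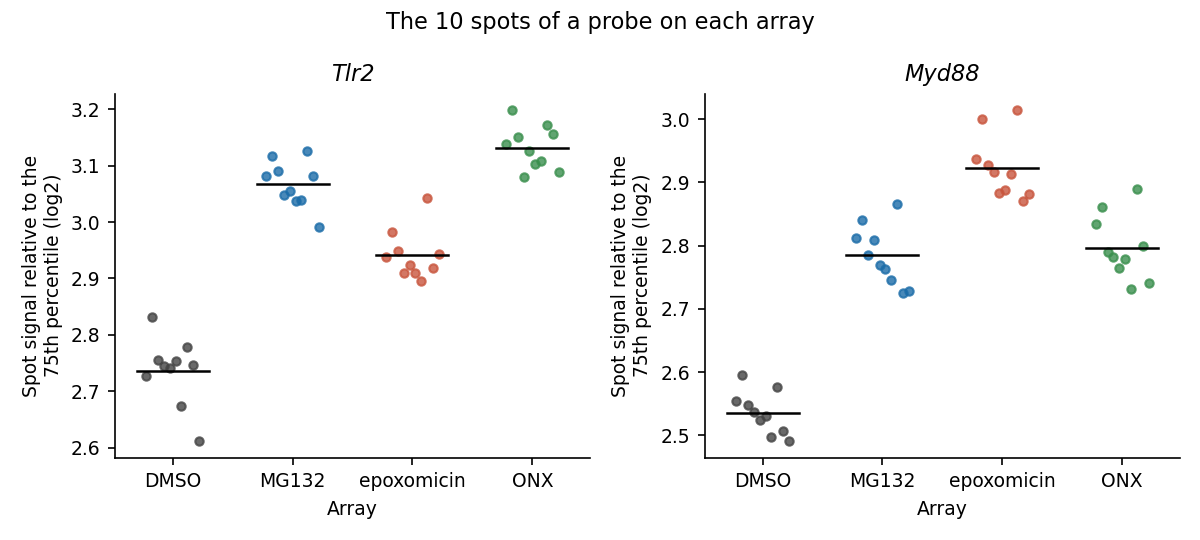
Scaled log2 signal of the 10 spots of *Tlr2* and of *Myd88* on each array, with the mean as a line. For both genes the DMSO spots lie below those of the 3 inhibitor arrays, by at most 0.40 in the means. How many other probes printed as 10 spots lie apart in this way was not counted.

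Of the endosomal receptors, *Tlr3* gave 159 as its signal under DMSO, 257 with MG132, 450 with epoxomicin and 231 with ONX. The DMSO array was the lowest and the epoxomicin array stood apart from the others. The differences were 0.85 with MG132, 1.45 with epoxomicin (2.73-fold) and 0.56 with ONX, with a software error of 0.21. Each step in the order epoxomicin, MG132, ONX, DMSO exceeded the software error, the smallest being 0.29 between MG132 and ONX. Under normexp the differences were -0.16, 0.18 and -0.50, while the median of all genes moved to -0.27, -0.30 and -0.15. When outlier spots were left out before that correction, an alternative added after the data were seen, they were 0.56, 0.90 and 0.23. The call past 2-fold was therefore lost under both forms of this correction, and the sign with MG132 and ONX was lost under one of them.

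*Tlr7*, which encodes a receptor for single-stranded RNA, had 2 probes. The brighter one gave 10190 on the DMSO array, 6839 with MG132, 7435 with epoxomicin and 8219 with ONX, and the other one gave 8749, 5669, 6777 and 7455. On both probes the DMSO array was the highest and the ONX array came next. The differences were -0.42, -0.51 and -0.29 on the brighter probe and -0.47, -0.42 and -0.21 on the other, all more than the software error of 0.20. The order of MG132 and epoxomicin was opposite on the 2 probes, with gaps of 0.09 and 0.05 that were within the software error.

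*Tlr9*, which encodes a receptor for unmethylated CpG DNA, had signals of 1746, 1584, 1673 and 1882 on the DMSO, MG132, epoxomicin and ONX arrays. Its differences from DMSO were 0.01, -0.12 and 0.13, all within the software error, and the sign with MG132 turned under 2 alternatives. *Tlr8*, the neighbor of *Tlr7* with 0 genes between them, had signals of 3.67, 4.44, 4.91 and 4.80 and was not well above background on any array, so no fold is given.

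*Myd88*, the shared adaptor, had a mean signal over 10 spots of 8502 ± 199 (SD) on the DMSO array, 9074 ± 299 with MG132, 11542 ± 402 with epoxomicin and 10057 ± 356 with ONX. Its scaled spots on the DMSO array (2.49 to 2.59) lay below those with MG132 (2.73 to 2.87), epoxomicin (2.87 to 3.01) and ONX (2.73 to 2.89). The differences from DMSO were 0.25, 0.39 and 0.26 with an SE over spots of 0.02, and each was above the software error of 0.20. The scaled spots of epoxomicin were apart from those of MG132, whereas those of ONX overlapped with both. Without scaling, the difference with MG132 was 0.09, below the software error. Before scaling, the spots of the DMSO array (up to 8855) overlapped with those of the MG132 array (from 8708).

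Over the set, 22 of the 27 differences from DMSO were larger than their software error. The 5 that were not are the 3 values of *Tlr9* and the ONX values of *Tlr4* and *Cd14*. The value of *Tlr2* with epoxomicin passed its error only narrowly. The share of all genes past their software error was not computed, so the count of 22 does not set these genes apart. No gene of the set differed 2-fold between any pair of inhibitors. Among all genes, 0.807% were at least 2-fold higher and 0.704% lower with epoxomicin than with MG132, 1.1% higher and 2.92% lower with ONX than with MG132, and 1.6% higher and 4.3% lower with ONX than with epoxomicin. The 9 genes had a median difference of 0.01 for MG132, -0.12 for epoxomicin and 0.00 for ONX, beside -0.05, -0.07 and -0.03 over all genes.

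The genes nearest in pattern to *Tlr6* and *Tlr1*, the 2 with the largest range over the arrays, were sought among 12726 genes well above background on all 4 arrays, as the smallest Euclidean distance between the 4 centered log2 values. For *Tlr6* they were *Gpr183*, which encodes an oxysterol receptor, *Marcks*, which encodes a substrate of protein kinase C, and *Lifr*, which encodes a receptor for leukemia inhibitory factor, at distances of 0.095, 0.15 and 0.16. For *Tlr1* they were *Sapcd2*, *Tnfaip8* and *Cemip2*, at 0.081, 0.11 and 0.11. *Tlr1* was the 13th nearest gene to *Tlr6*, and *Tlr6* the 64th nearest to *Tlr1*, at a distance of 0.28. A likeness over 4 arrays that share 1 DMSO sample is a description only. The values of *Lifr* depend on the probe, and the mean over its probes gave -1.21, -0.88 and -0.76 in place of -1.69, -1.44 and -1.43. The same holds for *Sapcd2*, with -1.89 and -2.05 in place of -1.61 and -1.65 for MG132 and epoxomicin. For *Tnfaip8* the mean over probes gave -1.35, -1.40 and -0.99 in place of -1.40, -1.63 and -1.13.

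The other genes of the pathway were 47 genes on 6 lists, of which 43 could be compared with MG132 and with epoxomicin and 44 with ONX. With MG132, 3 were at least 2-fold higher (6.98%, beside 6.87% of all genes) and 3 lower (6.98%, beside 4.11%). With epoxomicin, 3 were higher (6.98%, beside 8.05%) and 4 lower (9.30%, beside 4.85%). With ONX, 1 was higher (2.27%, beside 3.17%) and 1 lower (2.27%, beside 1.45%). The medians of the pathway genes, -0.05, -0.05 and -0.02, lay close to those of all genes. The counts on the single lists below are to be read against the same shares of all genes, and each list is short.

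**Figure D4:**
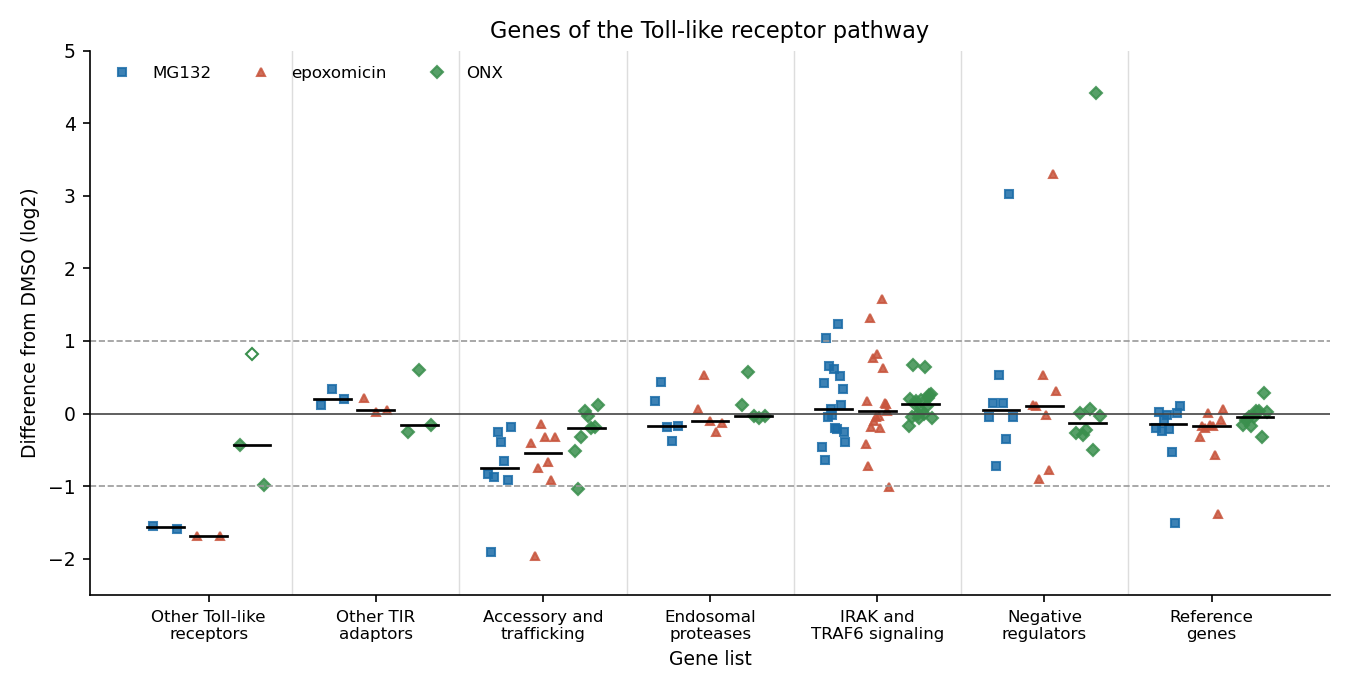
Log2 difference from DMSO of the genes on 6 pathway lists and of 10 reference genes, with 1 point per gene and inhibitor, a line for the median of a list, an open point for a bound and dashed lines at 2-fold. The points farthest from 0 are those of *Socs1* among the negative regulators, at 3.02, 3.30 and 4.41.

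Among 4 further Toll-like receptor genes, 2 could be compared with MG132 and epoxomicin, and both were lower. With ONX, *Tlr11* could be compared as well. It was well above background on the ONX array alone (signal 25.6), which gives it at least a 1.77-fold higher value than on the DMSO array. *Tlr13*, which encodes a receptor for bacterial ribosomal RNA, had signals of 11315, 3370, 3657 and 5650 on the DMSO, MG132, epoxomicin and ONX arrays, with differences of -1.59, -1.68 and -0.98. The ONX value lay just short of 2-fold and passed it under 3 of 10 alternatives. *Tlr5*, which encodes the flagellin receptor, had signals of 123, 37.9, 39.7 and 89.9, with differences of -1.54, -1.69 and -0.43. The first 2 of these became -0.45 and -0.73 under normexp with outlier spots left out. *Tlr5* was also at least 2-fold higher with ONX than with MG132 (1.11) and than with epoxomicin (1.25).

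Of 4 further adaptors with a TIR domain, 3 were compared and none passed 2-fold. *Tirap*, which bridges MYD88 to TLR2 and TLR4, gave 0.12, 0.22 and -0.25. *Ticam1*, the adaptor of TLR3, gave 0.34, 0.02 and 0.59. *Ticam2*, which links TICAM1 to TLR4, gave 0.21, 0.05 and -0.15 from signals of 21.3 to 25.7, and these became -1.09, -1.33 and -1.59 under normexp.

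Of 9 accessory and trafficking genes, 8 were compared, with medians of -0.75, -0.54 and -0.19, and 1 was at least 2-fold lower with each inhibitor. This was *Cd180*, which encodes a relative of TLR4 that does not signal through a TIR domain. Its signals were 412, 98.3, 109 and 199, and its differences were -1.91, -1.97 and -1.03, the last of which became -0.69 under normexp with outlier spots left out. *Unc93b1*, which brings the endosomal receptors to their compartment, gave -0.40, -0.32 and -0.04. None of 5 endosomal proteases passed 2-fold, with differences between -0.38 and 0.57.

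Of 17 genes for IRAK and TRAF6 signaling, 2 were at least 2-fold higher with MG132 and with epoxomicin and none with ONX. *Traf6*, which encodes the ubiquitin ligase downstream of the IRAK kinases, had signals of 756, 1396, 1952 and 1187 on the DMSO, MG132, epoxomicin and ONX arrays. Its differences were 1.04, 1.32 and 0.67, and the first fell short of 2-fold under 3 of 10 alternatives, with 0.85 under normexp, 0.97 under median scaling and 0.89 without scaling. *Peli1*, which encodes a ubiquitin ligase that acts with IRAK1, gave 1.23, 1.58 and 0.64. *Ikbke*, which encodes a kinase related to TBK1, gave -0.39, -1.01 and -0.07, and 5 of 10 alternatives left its epoxomicin value short of 2-fold. The kinase genes gave -0.46, -0.42 and -0.18 for *Irak1*, 0.42, 0.18 and 0.20 for *Irak2*, and -0.64, -0.73 and -0.05 for *Irak4*. The values of *Irak2* and *Irak4*, with 2 probes each, depended on the probe. For MG132 and epoxomicin, the mean over probes gave 0.70 and 0.39 for *Irak2*, and -0.35 and -0.54 for *Irak4*.

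Of 8 negative regulators, 1 was past 2-fold with each inhibitor. *Socs1*, which encodes a suppressor of cytokine signaling, gave 316 as its signal under DMSO, 2311 with MG132, 3236 with epoxomicin and 6654 with ONX. It was 8.14-fold, 9.86-fold and 21.3-fold higher. The ONX array was the highest here, whereas for *Traf6* and *Peli1* it was the lowest of the 3 inhibitor arrays. *Irak3*, which encodes the inhibitory IRAK kinase, gave -0.05, 0.12 and -0.26. Among 10 reference genes the medians were -0.15, -0.17 and -0.05, and *Gusb*, a lysosomal enzyme gene, was 2.85-fold lower with MG132 and 2.62-fold lower with epoxomicin.

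**Figure D5:**
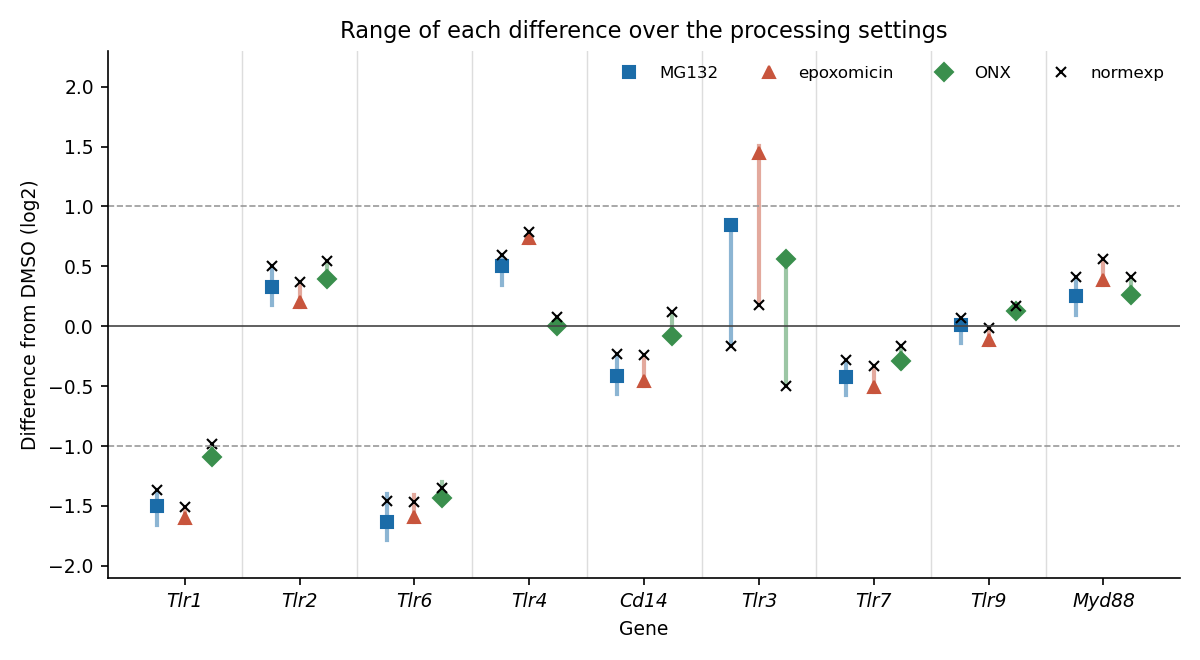
Range of each log2 difference from DMSO over the alternative settings (vertical line), with the reported value as a colored point and the normexp value as a cross. The lines of *Tlr6* stay below -1 with all 3 inhibitors, the ONX line of *Tlr1* reaches -0.99, and the lines of *Tlr3* are the longest, reaching 0.18 with epoxomicin.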

How the data were processed

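RNA of J774.1 cells was measured on 4 single-color Agilent arrays of 1 slide. Files from the scanner's Feature Extraction software (10.7.1.1), deposited by the authors, give spot intensity after background subtraction within an array, with no scaling between arrays. A second deposited table holds log2 values, each set against the median of its probe on the 4 arrays. The Methods name a human design, whereas the file headers describe a mouse design. The files name probes by transcript accession, so 26575 of 39429 probes (67.4%) were named through the RefSeq table of GRCm38.p6. Promoter windows are from RefSeq on the same build.

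Control spots and spots with an outlier mark were left out, log2 of the processed intensity was taken, and spots of a probe were averaged. The 75th percentile over probe averages was subtracted. This form was chosen after a first set of values with the percentile over spots had been seen. It matches the deposited log2 table within 0.0013 over 22418 probes measured on all arrays, and the percentile over spots is kept as an alternative. A gene was represented by its probe with the highest mean. It was compared if either array showed it well above background. Where the dimmer array was not, the difference is a bound, and a bound under 1-fold gives no value. The last rule, and the neglect of outlier spots in detection calls, were also set after those first values, and no call in the set differed.

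Genes named in the text were the 10 genes of the set, 10 fixed pathway genes, each pathway or reference gene past 2-fold with any inhibitor, and the 3 nearest patterns of 2 genes. Cell type markers served as a check. Alternatives were normexp, scaling by the median, by detected probes, by quantiles or not at all, the deposited log2 table, the mean over probes, signals in place of bounds, a 4-fold threshold and 2 other filters on dim probes. Genes and lists were chosen with earlier results of these data known. Motifs were searched on both strands, and 2 more (ETS and AP-1), looked at in a longer window, are not reported. Precision is limited by the number of arrays, 1 per condition. The calculations were tested on simulated data. Software was limma 3.58.1 in R 4.3.3 (normexp, offset 50), and pandas 2.3.3, numpy 2.4.6 and matplotlib 3.10.9 in Python 3.11.15.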

Additional observations from a re-analysis of the deposited data

How the results depend on the processing

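Of 270 alternative values of the 27 differences, under the settings that change single values, 233 moved by less than 0.085, the largest median SD between spots (0.060) times the square root of 2, and 37 moved by more, 22 of them under normexp, 6 under normexp with outlier spots left out of its fit, and 9 without scaling. The cause of these moves was not tested. Some settings could hardly move a value, so 233 is not a count of stable results. None of the 27 differences is a bound, so signals in place of bounds changed none of them. The mean over probes could change only *Tlr7*, and the deposited log2 table follows the same scale. *Tlr1* and *Tlr6* were at least 2-fold lower with each inhibitor under every setting that keeps the 2-fold threshold, except *Tlr1* with ONX under normexp. In all 13 settings were tried, of which normexp with outlier spots left out and the percentile over spots were added after the data were seen. The latter gave the same counts of genes of the set.

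At a 4-fold threshold, 0 genes of the set were lower with any inhibitor and 0 higher with epoxomicin, and of the pathway genes 1 was higher with MG132, 1 with epoxomicin and 0 lower with any inhibitor. Under normexp, 0 genes of the set were higher with epoxomicin and 1 was lower with ONX, 3 pathway genes were lower with ONX and the pathway median with ONX was 0.0736. The same correction left 4 pathway genes lower and 2 higher with MG132, and 6 lower with epoxomicin. With outlier spots left out of the normexp fit, 0 genes of the set were higher and 2 pathway genes lower with epoxomicin. Without scaling, 5 pathway genes were lower with MG132 and 2 with ONX, and the pathway median with MG132 was -0.20, as the median of all genes was. With the percentile over detected probes, 2 pathway genes were lower with ONX. With the deposited log2 table, and with the signal itself in place of bounds, 2 pathway genes were higher with ONX. Other small changes of these counts are not listed.

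Over all genes, the counts higher and lower were 948 and 567 with MG132, 1119 and 674 with epoxomicin, and 438 and 200 with ONX. They became 473 and 2512, 570 and 3019, and 195 and 2663 under normexp, and 583 and 298, 675 and 398, and 213 and 75 with outlier spots left out of its fit. At 4-fold they were 260 and 52, 325 and 61, and 109 and 21. Without scaling they were 740 and 904 with MG132. With ONX they were 520 and 359 in the deposited log2 table, 519 and 358 with signals in place of bounds, and 279 and 106 among genes above background on all arrays. Smaller moves of these counts are not listed.

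No paired analysis was possible because each condition has 1 array. Precision is limited by that number.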
